A study of Mus musculus with 2 samples.

Results

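Mir15a, Mir16-1, Mir15b, Mir16-2 and Mir195a, genes of the miR-15/16 family, were followed in small RNA libraries of mouse embryonic heart. These 5 genes were chosen by name among the 1973 microRNA (miRNA) genes with an entry in the deposited count tables. The series holds 1 group of 2 libraries of small RNA, made from total RNA of hearts of the mouse strain B6NCrl at embryonic day 14.5, with no treatment, mutant or control group. The libraries are labelled as biological replicates 1 and 2 and were collected on days 15 and 17 of July 2014, so that replicate and collection day cannot be told apart. The labels speak of a single heart for each library and also of males and females pooled, and they give both libraries the same donor entry. Whether each library is 1 animal, and whether the libraries come from separate animals, is therefore not settled by them. Values are counts scaled to a common total of reads assigned to miRNA genes (CPM), and a spread over n = 2 measures only how far these libraries differ. No p-value is given, since an exact sign permutation over 2 libraries cannot go below 0.5.

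miRNAs are short RNAs cut from hairpins, and they repress messenger RNAs that pair with their seed, the bases 2 to 8 from the 5′ end. The miR-15/16 family is known for restraining the cell cycle through targets such as D-type and E-type cyclins, and for targeting Bcl2, an inhibitor of apoptosis. Mir15a and Mir16-1 lie within Dleu2, a long non-coding RNA gene whose human counterpart is often deleted in chronic lymphocytic leukaemia. Mir15b and Mir16-2 lie within Smc4, which encodes a subunit of the condensin complex that compacts chromosomes in mitosis. Mir195a lies beside Mir497 at a locus of its own. In mouse heart, miR-195 is known for its rise soon after birth and for holding back the division of heart muscle cells.

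The mature 5p sequences show what the family shares and where the members differ. They are RefSeq sequences for build GRCm38.p6, written 5′ to 3′ with the seed in capitals, and all 5 genes matched an entry for them.
miR-15a-5p: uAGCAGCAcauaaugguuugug
miR-15b-5p: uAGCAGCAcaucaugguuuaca
miR-16-5p (Mir16-1 and Mir16-2): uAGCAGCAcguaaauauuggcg
miR-195a-5p: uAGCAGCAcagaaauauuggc
All 4 sequences carry the seed AGCAGCA. Over their shared length, miR-16-5p and miR-195a-5p were identical at 19 of 21 positions, and the miR-195a-5p bases differed as G10A and U11G, counted from 1 at the 5′ end of miR-16-5p. The miR-15a-5p and miR-15b-5p sequences were identical at 18 of 22 positions and differed as A12C, G20A, U21C and G22A, counted in the same way on miR-15a-5p. Across these pairs the sequences were less alike, as miR-16-5p and miR-15b-5p with 14 of 22 positions identical.

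Mir16-1 and Mir16-2 make the same 5p product, which matters for every count of these genes. Their hairpins are shown with the longest stretch they have in common in capitals.
Mir16-1 hairpin: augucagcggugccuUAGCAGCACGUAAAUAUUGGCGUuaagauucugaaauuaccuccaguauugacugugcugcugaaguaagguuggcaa
Mir16-2 hairpin: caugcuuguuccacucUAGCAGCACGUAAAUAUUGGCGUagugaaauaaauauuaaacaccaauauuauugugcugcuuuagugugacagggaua
The shared stretch is 23 bases long and holds the whole of miR-16-5p. The 3p products of the pair differ, and they are shown with bases 2 to 8 in capitals.
miR-16-1-3p: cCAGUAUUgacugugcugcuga
miR-16-2-3p: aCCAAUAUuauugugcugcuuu
A search of 141767 annotated transcripts (GENCODE M21) on both strands found miR-16-5p exactly in 2 genes, Mir16-1 and Mir16-2. Each of the other 5p and 3p sequences of the 5 genes was found in 1 gene, its own. The tables list reads that mapped to several places apart from the genes, and these were 30.6% of all reads in replicate 1 and 30.1% in replicate 2. A read of exactly miR-16-5p matches both loci and thus belongs with the reads listed apart from the genes. The counts of Mir16-1 and Mir16-2 leave such reads out. Their levels given here can therefore be too low, and the level of miR-16-5p itself was not measured. The tables do not split a gene's reads into 5p and 3p arms.

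At each locus the genes sit close together. In mouse build mm10, with GENCODE M21 names, Mir15a is at chr14:61632027-61632110 and Mir16-1 at chr14:61631880-61631972, both on the minus strand with 54 bases between them. All 8 Dleu2 transcripts that overlap Mir15a have an intron there, and of the 9 that overlap Mir16-1, 8 have an intron and 1 has an exon. Mir15b is at chr3:69009772-69009835 and Mir16-2 at chr3:69009902-69009996, on the plus strand with 66 bases between them and in an intron of all 5 overlapping Smc4 transcripts. Mir195a is at chr11:70235042-70235135 on the plus strand, overlaps no annotated host transcript, and lies 241 bases downstream of Mir497.

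**Figure D1:**
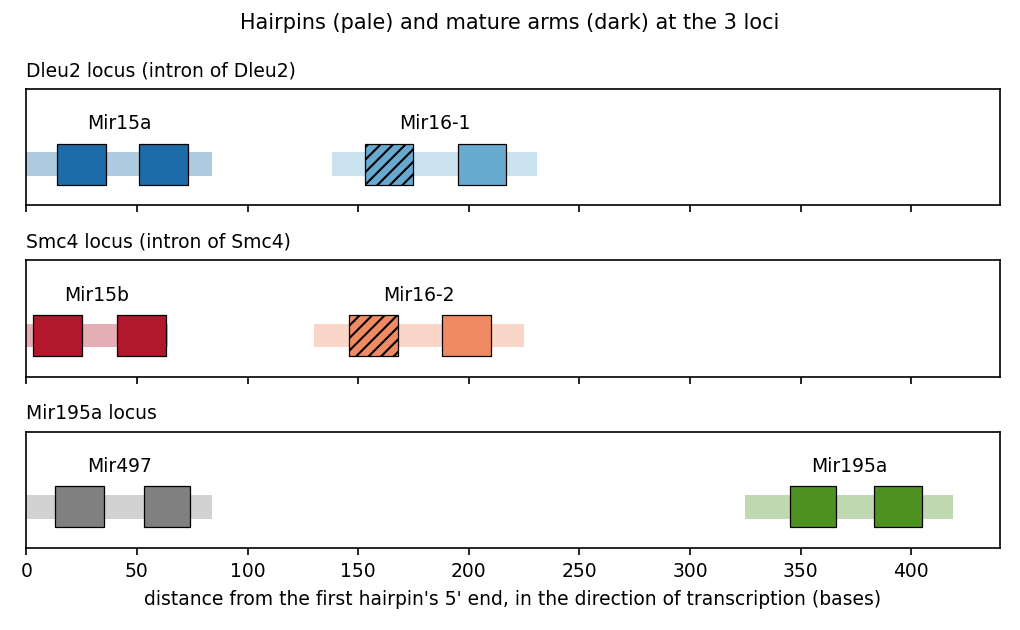
Map of the 3 loci drawn to scale, with the distance in bases from the first hairpin's 5′ end on the x axis. Pale bars are annotated hairpins and dark boxes mature arms, and the hatched boxes are the miR-16-5p arms of Mir16-1 and Mir16-2, which have the same sequence. The gap between hairpins is 54 bases in Dleu2, 66 in Smc4 and 241 between Mir497 and Mir195a.

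All 5 genes reached 10 counts in both libraries, which is called detected here, against 17.1% of all 1973 genes. Replicate 1 held 4327424 gene counts and replicate 2 held 3839984. A mature miRNA is of much the same length whatever its hairpin, so CPM were compared between genes without division by length. This does not make up for the reads of exactly miR-16-5p that are missing from the counts of Mir16-1 and Mir16-2. How evenly different sequences were captured in the libraries was not measured, so ratios between genes are ratios of reads.

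Of the pair in Dleu2, Mir15a was the most abundant of the 5 genes and nearly the same in both libraries, with 9000 and 8174 counts. It reached 2080 CPM in replicate 1 and 2129 in replicate 2, or 2104 ± 34.6 (SD, n = 2). Its partner Mir16-1 had 7817 and 5517 counts, or 1806 CPM in replicate 1 and 1437 in replicate 2 (1622 ± 261). Mir15a lay above Mir16-1 in both libraries, and their ranges did not overlap.

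The ratio of Mir15a to Mir16-1 was 1.15 in replicate 1 (95% exact counting interval 1.12 to 1.19) and 1.48 in replicate 2 (1.43 to 1.53). The mean difference on the log2(CPM + 1) scale was 0.39 ± 0.26. The distance between these neighbours was not far beyond its own spread between libraries, and its direction was the same in both. Counting intervals here cover counting error only, not differences between libraries. They take each read as a separate molecule, and the sources used here mention no molecular identifiers by which this could be checked.

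Of the pair in Smc4, Mir15b was 1460 CPM in replicate 1 and 1722 in replicate 2, or 1591 ± 185 (SD, n = 2), from 6317 and 6611 counts. Mir16-2 was far lower in both libraries, at 379 and 323 CPM (351 ± 39.6), from 1641 and 1241 counts. It was the lowest of the 5 genes in each library. Mir15b exceeded Mir16-2 by 3.85 times in replicate 1 (interval 3.65 to 4.07) and by 5.33 times in replicate 2 (5.01 to 5.66). The mean difference was 2.18 ± 0.33 on the log2(CPM + 1) scale, several times the spread between the libraries.

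Mir195a, the gene at the separate locus, had 2044 and 1865 counts. It reached 472 CPM in replicate 1 and 486 in replicate 2, or 479 ± 9.43 (SD, n = 2). It lay above Mir16-2 and below the other 3 members in both libraries, with no overlap of ranges. The ratio of Mir195a to Mir16-2 was 1.25 (interval 1.17 to 1.33) in replicate 1 and 1.503 (1.40 to 1.62) in replicate 2. Mir15a stood above Mir195a by nearly the same factor in each library, 4.40 (interval 4.196 to 4.62) and 4.38 (4.17 to 4.61).

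**Figure D2:**
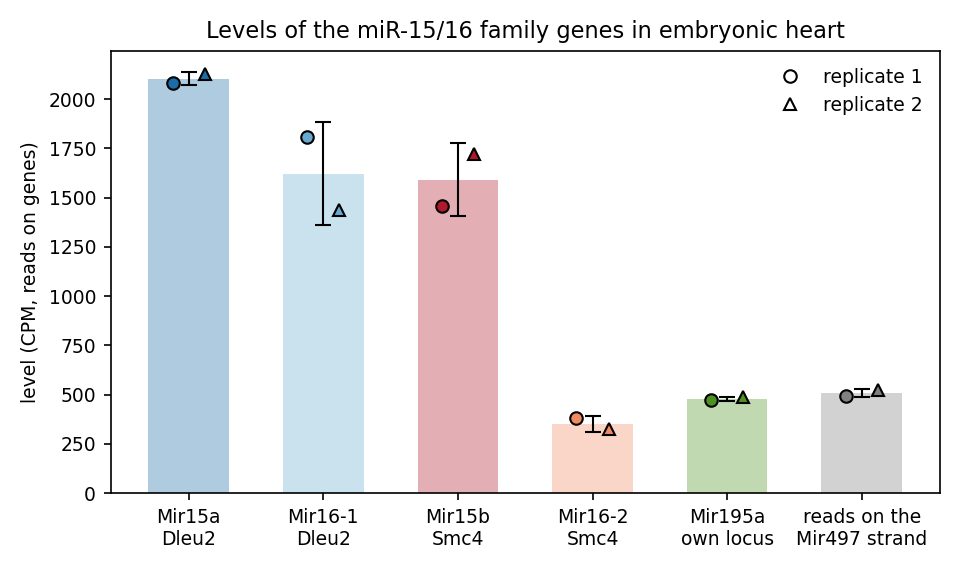
Level of each gene in CPM on a linear axis from 0, with circles for replicate 1, triangles for replicate 2, bars for the mean and error bars for the SD of 2 libraries. Mir15a sits highest at 2080 and 2129 CPM, Mir16-1 and Mir15b change places between the libraries, and Mir195a and Mir16-2 stay below them. The grey bar gives reads on the strand of Mir497, counted under the entry of the gene on the opposite strand.

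By the reads counted to each gene, the order of levels was therefore Mir15a, then Mir16-1 and Mir15b, then Mir195a, then Mir16-2. The places of Mir16-1 and Mir16-2 in it rest on counts that can be too low. Only the middle pair did not separate: Mir16-1 lay above Mir15b in replicate 1 by 1.24 times (interval 1.20 to 1.28), and Mir15b lay above Mir16-1 in replicate 2 by 1.20 times (1.16 to 1.24). Their mean difference, -0.02 ± 0.40 on the log2 scale, was far smaller than its spread.

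Summed by locus, the Dleu2 pair led. It reached 3886 CPM in replicate 1 and 3565 in replicate 2, against 1839 and 2045 for the Smc4 pair. The Dleu2 pair lay above the Smc4 pair by 2.11 times in replicate 1 (interval 2.06 to 2.17) and 1.74 times in replicate 2 (1.70 to 1.79), and the ranges did not overlap. The mean log2 ratio of the Smc4 pair to the Dleu2 pair was -0.94 ± 0.20.

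Mir195a lay below both loci. The Dleu2 pair exceeded it by 8.23 times (interval 7.86 to 8.62) and 7.34 times (6.99 to 7.71), and the Smc4 pair by 3.89 times (3.71 to 4.09) and 4.21 times (4.002 to 4.43). Of the counts on the 5 genes, the Dleu2 pair held 62.7% in replicate 1 and 58.5% in replicate 2. The Smc4 pair held 29.7% and 33.5%, and Mir195a held 7.62% and 7.97%.

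Because the miR-16 genes can be under-counted, the loci were also set against each other by their miR-15 genes alone, whose 5p and 3p sequences were each found in a single gene. The direction was the same: Mir15a exceeded Mir15b by 1.42 times (interval 1.38 to 1.47) in replicate 1 and by 1.24 times (1.20 to 1.28) in replicate 2. This gap, 0.41 ± 0.14 on the log2 scale, was smaller than that of the locus sums. The miR-16 genes differed more, with Mir16-1 above Mir16-2 by 4.76 times (4.52 to 5.03) and 4.45 times (4.18 to 4.73). How reads of the shared 5p sequence would divide between them was not tested.

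The 5 genes together held 26819 counts in replicate 1 and 23408 in replicate 2. Their sum was 6197 and 6096 CPM, or 6147 ± 71.8 (SD, n = 2), which is 0.620% and 0.610% of the gene counts. The sum was steadier than that of the miR-16 genes alone, at 2186 and 1760 CPM. By rank among all 1973 genes the members stood at 58 and 57 (Mir15a), 62 and 72 (Mir16-1), 69 and 64 (Mir15b), 96 and 100 (Mir195a), and 107 and 119 (Mir16-2) in the libraries in turn. Their median level was 1591 CPM, against 104 over the 337 detected genes. Means of at least 1000 CPM were found for 3 of the 5, against 3.95% of all genes. Among the 337 detected genes they were found for 78.

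Mir16-1 was among the highest of the genes with a duplicated mature sequence. Of the genes in the tables that the RefSeq table lists under the same symbol, 87 have a mature sequence identical to one of another gene there, and 829 do not. The split follows the RefSeq entries only, and the 829 still include genes of miRNAs made from several loci, such as Mir1a-1. Detected genes numbered 40 of the 87 (46.0%) and 268 of the 829 (32.3%). Among the 87, Mir16-1 was the highest in replicate 1 and came next after Mir92-1 (1627 CPM) in replicate 2. Mir16-2 ranked 7 and 8. The highest mean among the 87 was 1706 CPM, far below the 119648 CPM of the highest gene without such a copy.

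**Figure D3:**
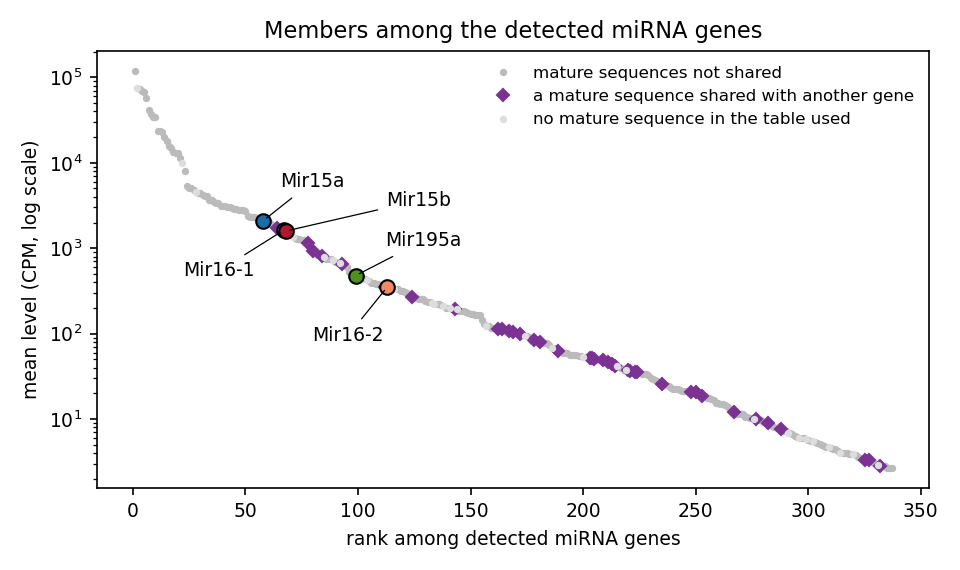
Mean level (CPM, log axis) against rank for the 337 detected genes, with purple diamonds for genes that have a mature sequence identical to one of another gene. The 5 members are drawn as larger circles between 351 and 2104 CPM, and no purple diamond lies above 1706 CPM.

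The genes nearest to each member in level over the 2 libraries were found by the Euclidean distance of log2(CPM + 1). Mir15a was nearest to Mir541 (distance 0.08) and Mir361 (0.09), and Mir16-1 to Mir92-1 (0.18) and Mir484 (0.23). Mir15b was nearest to Mir369 (0.20) and Mir484 (0.22), Mir16-2 to Mir671 (0.05) and Mir328 (0.13), and Mir195a to Mir25 (0.14) and Mir34c (0.17). With only 2 libraries this likeness is little more than a like level.

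Both pairs were set beside other neighbouring miRNA genes, taken as detected genes next to each other on 1 strand with starts within 10 kb. Of 106 such pairs, 81 differed by more than 2-fold (76.4%), and the median difference was 2.74 on the log2 scale. The Mir15a and Mir16-1 pair, at 0.39, ranked 14 from the closest. The Mir15b and Mir16-2 pair, at 2.18, ranked 43 and lay between the lower quartile of 1.14 and the median. Of these pairs, 20 include a gene with a duplicated mature sequence, as both member pairs do, and their median was 2.92.

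**Figure D4:**
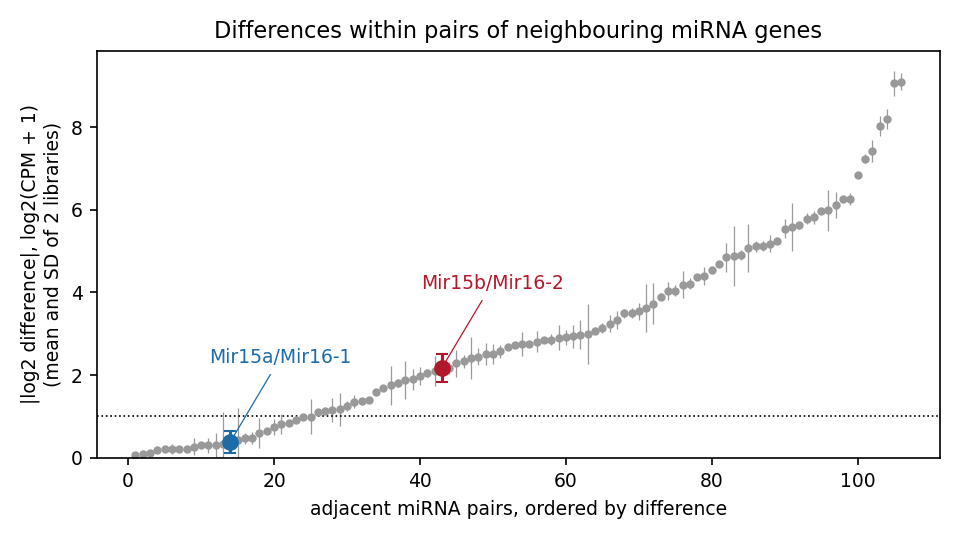
Absolute difference in log2(CPM + 1) within 106 pairs of neighbouring miRNA genes, ordered from the smallest, with error bars for the SD of 2 libraries and a dotted line at 2-fold. Mir15a and Mir16-1 (blue) lie at 0.39, below the line, and Mir15b and Mir16-2 (red) at 2.18, above it.

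Between the libraries no member differed by more than 1.5-fold, against 11.0% of the 337 detected genes (9.79% higher in replicate 2 and 1.19% lower). As log2 ratios of replicate 2 to replicate 1, Mir15a stood at 0.03 (counting interval -0.01 to 0.08) and Mir195a at 0.04 (-0.05 to 0.13). Mir15b stood higher in replicate 2, at 0.24 (0.19 to 0.29). The miR-16 genes were both lower there, Mir16-1 at -0.33 (-0.38 to -0.28) and Mir16-2 at -0.23 (-0.34 to -0.12). The median over the 337 genes was 0.08, and their median absolute ratio was 0.22, close to that of the members (0.23). With median-of-ratios scaling, the median of all genes moved by -0.11, and Mir15a and Mir195a turned to -0.08 and -0.07. A scaling shifts all genes alike, so it hardly enters a value taken relative to the median of all genes. On that footing Mir15b stood at 0.16, Mir16-1 at -0.41 and Mir16-2 at -0.31.

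So within each host gene the miR-16 gene lay lower against its miR-15 partner in replicate 2 than in replicate 1. The log2 ratio of Mir15a to Mir16-1 differed by 0.36 between the libraries, and that of Mir15b to Mir16-2 by 0.47. Over the 106 neighbouring pairs the median absolute change of this kind was 0.22, and the member pairs ranked 33 and 19 from the largest. These ratios hardly depend on the scaling to a library total. The part of reads that mapped to several places in this difference was not tested.

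**Figure D5:**
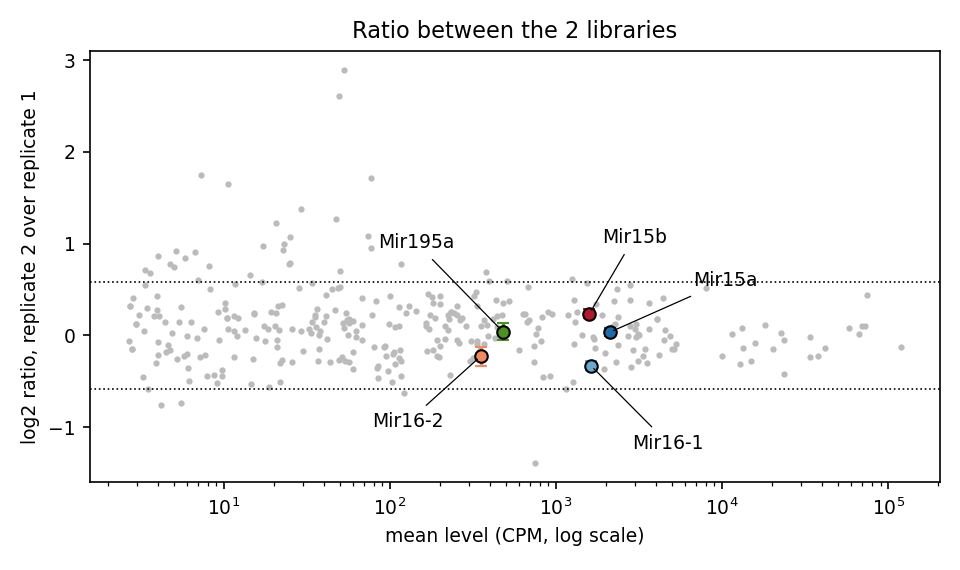
Log2 ratio of replicate 2 to replicate 1 against mean level (CPM, log axis) for 337 detected genes (grey), with dotted lines at 1.5-fold. Members are coloured with their 95% counting intervals: Mir16-1 (-0.33) and Mir16-2 (-0.23) lie below 0, Mir15b (0.24) above it, and Mir15a and Mir195a near it.

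The seed AGCAGCA is not confined to the 5 genes. According to RefSeq, 11 mouse miRNA genes have a mature sequence with this seed, of which 10 have an entry in the tables. Beside the 5 members, 1 more was detected, Mir322 on the X chromosome (chrX:53054255-53054349), a miRNA known for promoting muscle differentiation and cell cycle exit, whose 5p sequence is shown for comparison.
miR-322-5p: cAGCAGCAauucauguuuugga
Mir322 was 66947 CPM in replicate 1 and 72001 in replicate 2, which was 10.8 and 11.8 times the sum of the 5 members. The members thus held 8.47% and 7.81% of the counts on the 10 genes with this seed and an entry, and Mir322 held 91.5% and 92.2%. The other 4 genes, Mir195b, Mir6342, Mir6353 and Mir6419, had 1 count of Mir195b in replicate 1 and 0 otherwise. With 3 counts as the most that a count of 0 leaves possible, the limit was 0.693 CPM for replicate 1 and 0.781 CPM for replicate 2. The under-counting of miR-16-5p applies to these shares too.

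Mir497, the neighbour of Mir195a with the same seed, is the 1 of the 11 with no entry. It lies inside the entry of Mir497b, a gene annotated on the opposite strand.
miR-497a-5p: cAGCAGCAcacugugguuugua
Under that entry the strand of Mir497 held 2130 reads in replicate 1 and 2006 in replicate 2, while the strand of Mir497b held 2 and 0. Scaled to the gene counts these reads were 492 and 522 CPM (507 ± 21.3), close to Mir195a. Their ratio to Mir195a was 1.04 (interval 0.980 to 1.11) in replicate 1 and 1.08 (1.01 to 1.15) in replicate 2. With these reads added to the counts on genes with this seed, the mean share was 8.08% for the members and 91.2% for Mir322. All reads of the 5 members themselves lay on the annotated strand, with 0 on the other.

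Other miRNAs linked to cell growth give a scale for these levels. The clusters linked to proliferation, Mir17 to Mir92-1 and their paralogues, summed to 31460 ± 440 CPM (SD, n = 2), with 14 of 15 genes detected and Mir17 (13435 ± 897) and Mir20a (5292 ± 239) highest. Listed miRNAs known for restraining growth outside the family summed to 137354 ± 10218 CPM, with 19 of 22 detected, mostly let-7 genes such as Mirlet7g (41466 ± 2860) and Mirlet7i (37535 ± 4115). The 5 members, at 6147 ± 71.8 CPM, lay below both sums in each library. Sums depend on how many genes a list holds and on the reads that mapped to several places.

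Of the heart muscle miRNAs, Mir208a, Mir208b and Mir499, in introns of myosin genes, were all detected and summed to 77553 ± 2547 CPM. The best known ones were near the floor, Mir1a-1 with 13 and 10 counts and Mir133a-1 with 12 in each library. Both miRNAs are made from more than 1 locus, so that reads mapping to several places are missing from these counts. The endothelial Mir126a reached 72473 ± 3594 CPM. The smooth muscle pair Mir143 and Mir145a summed to 75796 ± 15984 CPM. Mir21a and Mir214, listed here for fibroblasts, summed to 27369 ± 504, most of it from Mir21a (23749 ± 622). Whether these reads came from fibroblasts was not measured. Red blood cell (2 of 2 genes detected), white blood cell (3 of 3), epithelial (7 of 7) and liver markers (2 of 2) each summed to between 88.3 and 1184 CPM in either library. Among 6 neuronal genes, Mir137 was detected, at 13.2 CPM in replicate 1 and 85.7 in replicate 2, and the listed copies of miR-124 and miR-9 were at 0. These too are made from several loci, so their 0 sets no limit on their expression. The epithelial sum was 667 CPM in replicate 1 and 1142 in replicate 2, and that of the red blood cell pair 1184 and 489. Their part in the difference of the miR-16 genes between libraries was not tested. In these bulk libraries, fewer cells of a type and less RNA per cell cannot be told apart, and which cells of the heart the members' reads came from was not measured.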

How the data were processed

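Raw counts per miRNA gene were deposited as 1 table per library. Per the file descriptions deposited with them, the authors' tables use build mm10 and GENCODE M4 annotation. Which aligner and counting program made them is not given in the sources used here. Column 3 of each table, 1 strand, was used. Totals exclude the 4 lines for reads assigned to no gene, which held 46.9% of all reads in replicate 1 and 47.2% in replicate 2.

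CPM are counts over the summed gene counts of a library, with a pseudocount of 1 CPM for log2 values. GENCODE M21, on the same assembly, gave names and places and named 1894 of 1973 entries. Intervals are exact (Poisson, or Clopper-Pearson for ratios) at 95%. With 1 group no count model was fitted. Size factors came from edgeR 4.0.16 (TMM) and DESeq2 1.42.0 (median of ratios) in R 4.3.3. Tables were made in Python 3.11.15 with pandas 2.3.3, numpy 2.4.6 and scipy 1.17.1, and figures with matplotlib 3.10.9. The steps were tested on simulated data. A whole-genome search for the mature sequences was not made.

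Named were the 5 members, genes with their seed, neighbours on either strand, the 2 genes nearest each member in level, and the 2 highest genes of each list. Genes named beyond this, such as single markers, were chosen after their values were seen. The members and lists were chosen with earlier results of these data known. Alternatives were the unstranded column, other scalings, pseudocounts of 0.1 and 10 CPM, minimums of 1 and 100 counts, a 2-fold limit, replicate 1 thinned to the depth of replicate 2, and leaving out either replicate.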

Additional observations from a re-analysis of the deposited data

Results flagged for a closer look

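Reads on the strand of Mir497 appeared in a column outside the main measurement, under the entry of Mir497b on the opposite strand. They numbered 2130 in replicate 1 and 2006 in replicate 2, above the limit of 3 counts taken for a count of 0. There are no control samples to set them against. With 2 libraries, a single library far from its group could not be looked for.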

How the results depend on the processing

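The comparisons between and within loci are ratios of genes in the same library, so a scaling nearly cancels in them, and enters their log2 values only through the pseudocount. The members also had 0 reads on the other strand, and without either replicate the value is that of the other, as printed above. The other alternatives moved the log2 values of these comparisons by less than the spread between the libraries. With a total of all reads, Mir195a over the Dleu2 pair went from -2.956 to -2.953. The handling of reads that mapped to several places could not be varied, and it can move every comparison that holds Mir16-1 or Mir16-2. The summed level of the 5 members, 6147 CPM, became 5861 with the unstranded column, 6983 with a total that leaves out the most abundant gene and 3255 with a total of all reads, as the totals themselves change. Of 104 values under alternatives for single members, shares and ratios between libraries, 19 moved by more than 1 SD or, for the ratios, out of the counting interval. The calls past 1.5-fold between libraries over all genes were 33 higher and 4 lower, against 29 and 8 with TMM and 27 and 13 with median-of-ratios scaling. With TMM, too, Mir15a and Mir195a turned sign between libraries, to -0.03 and -0.03. No paired analysis was possible because the series has 1 group. Ratios between libraries have no value without a replicate. Depth limits Mir16-2 most, whose counting interval was 361 to 398 CPM in replicate 1 and 305 to 342 in replicate 2.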

Other observations

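Beside Mir16-1 and Mir16-2, 38 genes with a duplicated mature sequence were detected. Of these, 19 (50.0%) were lower in replicate 2, with a median log2 ratio of -0.0014 and a range from -0.58 (Mirlet7f-2) to 0.71 (Mir103-1). Of the 268 detected genes without a copy listed in RefSeq, 102 (38.1%) were lower, with a median of 0.10. All of these are scaled to the gene total. They were looked at after the miR-16 genes had been seen to be lower, and they are given as a description, since the difference between the sets was not tested.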
